A study of Homo sapiens with 8 samples.

Results

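The 5 SLAM-Seq libraries of control knockdown cells formed a 4-thiouridine (4sU) dose series: 1 library with 0 µM, 3 with 75 µM and 1 with 200 µM 4sU. They were 5 of the 8 libraries of the series, and the other 3 came from cells treated with siCGGBP1 and 75 µM 4sU. All were made from U-2OS Tet-ON, a human osteosarcoma cell line that expresses a tetracycline-regulated transactivator. The 5 libraries shared the control siRNA (siControl, 50 nM) for 72 h, and 60 min before harvest the medium was replaced by medium with the stated 4sU concentration, also for the 0 µM library. The paper's methods differ here and say that 75 µM 4sU was added to the medium. The titles of all 8 libraries carry the word DMSO, and all RNA was treated with iodoacetamide. Genes with at least 100 reads in each of the 5 libraries were compared, which were 7910 of 18388 genes. A further 4182 genes reached 100 reads in some of the libraries and 6296 in none. The question of such a series is whether labelling itself alters the RNA that is counted, how many conversions are read without any 4sU, and what a higher dose adds.

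In SLAM-Seq, cells take up the uridine analogue 4sU, phosphorylate it through the uridine salvage pathway and build it into RNA in place of uridine. Iodoacetamide alkylates the sulphur, so that reverse transcriptase reads the modified base as C, and new transcripts carry T-to-C conversions. A statistical model then separates these conversions from sequencing errors and gives for each gene the share of its RNA made during the pulse, the new-to-total ratio. RNAs of short half-life, such as those of immediate-early genes, are renewed within the pulse and have high ratios, while RNAs of ribosomal proteins and glycolytic enzymes are long-lived and have low ones. Libraries without 4sU serve to measure the error level, and comparing them with labelled libraries can show an effect of 4sU on cells or on the recovery of labelled RNA.

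The 0 and 200 µM doses had 1 library each. A permutation of 1 against 3 libraries cannot give a p below 0.25, so all comparisons are descriptions without a p-value, and the spread of the 3 libraries with 75 µM (replicates 1 to 3) is the error given. The study's statistics count biological replicates, but neither its methods nor the labels say whether these libraries came from separate cultures, so their spread may be technical. Read levels are reads divided by the median-of-ratios size factor of the library, called normalized reads. A gene was called higher or lower when its normalized reads were at least 2-fold above the highest or below the lowest of the 3 libraries with 75 µM.

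The library without 4sU held 19011714 reads, those with 75 µM 10166234 to 12093729, and that with 200 µM 11341561. The deepest library was not the one with the most genes. At 0 µM 13358 genes had a read, against 15724, 15471 and 13144 in 75 µM replicates 1 to 3 and 13000 at 200 µM. Of 2666 genes with 10 to 99 reads in both 75 µM replicates 1 and 2, 25.8% were listed at 0 reads in the 0 µM library, 27.9% in 75 µM replicate 3 and 30.7% at 200 µM. In genes detected, replicate 3 thus stood apart from replicates 1 and 2 of its own dose and lay close to the 0 and 200 µM libraries, as did replicate 3 of siCGGBP1, with 12657 genes and 35.9% at 0. In read level it was nearer to replicates 1 and 2. Results that turn on it are also given without it. The mesenchymal genes COL1A1, SPARC and VIM had at least 6351 reads in every library, whereas the bone markers SP7, BGLAP and ALPL had 0 to 177 reads. Not all genes of this list divided in that way. COL3A1 had at most 132 reads, and RUNX2 was read in every library, with at most 321. COL5A1 and CDH2 lay between the 2 sets named first. Of the markers of other cell types, EPCAM had 0 to 94 reads, GFAP 0 to 14 and HBA1 0 to 13, and CDH1, PTPRC, CD3E and PECAM1 had 0 or 1.

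**Figure D1:**
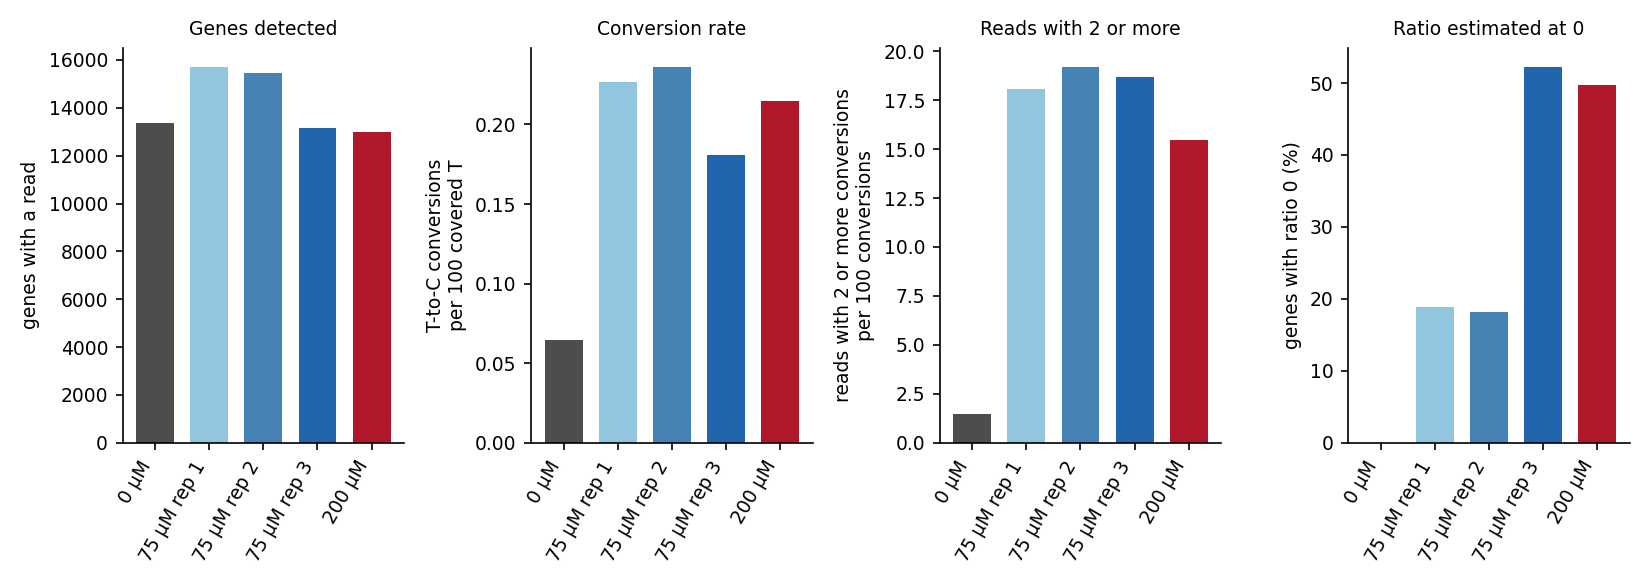
Bars give 1 library each (0 µM, 75 µM replicates 1 to 3, 200 µM), from left to right for genes with a read, T-to-C conversions per 100 covered T over the 7910 genes, reads with 2 or more conversions per 100 conversions, and the percent of genes whose new-to-total ratio was estimated at 0 (no ratio exists at 0 µM). 75 µM replicate 3 resembled the 200 µM library in genes detected (13144 and 13000) and in genes at ratio 0 (52.3% and 49.7%).

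The read profile without 4sU differed from each labelled library by more than the labelled replicates differed from one another. The median absolute log2 difference per gene was 0.47, 0.47 and 0.49 between the 0 µM library and 75 µM replicates 1 to 3. It was 0.42, 0.42 and 0.49 between the 200 µM library and the same replicates, and 0.28, 0.40 and 0.40 among the replicates, where the 2 larger values involve replicate 3. At 0 µM, 145 genes (1.83% of 7910) were called higher and 317 (4.01%) lower. At 200 µM, 134 (1.69%) were called higher and 224 (2.83%) lower. Scaled to total reads alone (CPM) these were 217 higher and 251 lower at 0 µM and 177 higher and 181 lower at 200 µM, where the median difference of all genes was 0.11 and 0.07, against 0.01 and -0.01 before. Replicate 3 set against replicates 1 and 2 alone gave 164 genes higher (2.07%) and 267 lower (3.38%). Against the same 2 replicates the 0 µM library gave 272 and 522 and the 200 µM library 227 and 328. Replicates 1 and 2, each set against the other 2, gave 37 higher and 27 lower and 37 higher and 28 lower, whereas the 0 µM library against the same pairs gave 222 higher and 403 lower and 221 higher and 389 lower. Of the replicates it was replicate 3 whose calls came nearest in number to those of another dose.

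Transcripts of immediate-early genes were higher at 0 µM and also at 200 µM than at 75 µM. Of the 37 genes on the list, 23 passed the filter. At 0 µM 14 of them lay above every 75 µM library, a place held by 31.8% of all genes, and at 200 µM 15 did, against 30.0% of all genes. The median difference from the mean of 75 µM was 0.40 (log2) at 0 µM and 0.68 at 200 µM, against 0.01 and -0.01 over all genes. Without replicate 3 the medians were 0.41 and 0.77. These genes had a median of 40.1 covered T per read in the siCGGBP1 libraries, against 32.2 over all genes, and the part of T content in the difference was not tested. At least 2-fold, 4 were called higher at 0 µM (JUNB, KLF10, DUSP1 and GADD45B), against 1.83% of all genes, and 5 at 200 µM (JUNB, IER2, DUSP1, KLF10 and IER3), against 1.69%, while PLK2, a stress-induced kinase, was called lower at 200 µM.

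JUNB (chromosome 19, 12791486 to 12793315, plus strand), an AP-1 transcription factor, had 2254 normalized reads at 0 µM, 411, 747 and 442 in 75 µM replicates 1 to 3, and 2305 at 200 µM. Both single libraries lay above the highest 75 µM library, and their levels were 4.23-fold and 4.32-fold the 75 µM mean of 533 ± 186 (SD, n = 3). DUSP1, a phosphatase that inactivates MAP kinases, had 3303 normalized reads at 0 µM, 970, 1496 and 1008 at 75 µM and 3515 at 200 µM, again with no overlap. IER2 differed in pattern, with 286 normalized reads at 0 µM, 438, 307 and 478 at 75 µM and 1325 at 200 µM, so only the 200 µM library stood above. MYC had 929 at 0 µM, 729, 771 and 619 at 75 µM and 428 at 200 µM, which placed the libraries in reverse order of dose. EGR1 had 4361 at 0 µM, 1751, 1948 and 3980 at 75 µM and 4406 at 200 µM, and here 75 µM replicate 3 lay with the single libraries.

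Other regulators with short-lived transcripts were partly alike. Of 31 on the list that passed the filter, 14 lay above every 75 µM library at 0 µM (31.8% of all genes) and 15 at 200 µM (30.0% of all genes). Below every one lay 5 at 0 µM (31.9% of all genes) and 10 at 200 µM (30.7% of all genes). The median differences were 0.37 and 0.27 on the log2 scale, and 0.46 and 0.14 without replicate 3. HES1 (chromosome 3, 194136148 to 194138732, plus strand), a repressor induced by Notch signalling, had 7151 normalized reads at 0 µM, 2033, 1352 and 1780 at 75 µM and 6036 at 200 µM. Its level was 4.15-fold and 3.51-fold the 75 µM mean, without overlap. IRF2BP2, a transcriptional corepressor, had 2038 at 0 µM, 753, 923 and 635 at 75 µM and 1812 at 200 µM. CLK1, a kinase of splicing factors, and CCNL1, a cyclin linked to splicing, were high only without 4sU. CLK1 had 647 normalized reads at 0 µM, 186, 216 and 158 at 75 µM and 222 at 200 µM. CCNL1 had 1149 at 0 µM, 492, 407 and 403 at 75 µM and 396 at 200 µM. Both 200 µM values lay within or next to the 75 µM range. SOX4 went the other way, with 1752 at 0 µM, 2138, 2397 and 2189 at 75 µM and 1407 at 200 µM.

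Transcripts of ribosomal proteins were lower in the library without 4sU. Of the 79 cytosolic ribosomal protein genes, all of which passed the filter, 71 lay below every 75 µM library at 0 µM, against 31.9% of all genes, and none above. At 200 µM 62 did, against 30.7% of all genes. The median difference from 75 µM was -0.56 at 0 µM and -0.32 at 200 µM (log2), and it kept its sign on the CPM scale (-0.46 and -0.24) and without replicate 3 (-0.44 and -0.27). At 0 µM 11 were called lower, against 4.01% of all genes, among them RPL10, RPL28, RPL29, RPL35, RPS2, RPS9, RPS15, RPS18, RPS26 and RPS28.

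RPL28 had 2647 normalized reads at 0 µM, 17097, 18007 and 12077 at 75 µM and 8170 at 200 µM, and the mean at 75 µM was 5.94-fold the level without 4sU. RPS15 had 1617 at 0 µM, 8597, 11520 and 7076 at 75 µM and 4381 at 200 µM. In both genes the 0 and 200 µM libraries lay below all 3 libraries with 75 µM, the 0 µM library farther. RPL30 was not below, with 16652 at 0 µM, 14009, 14676 and 17344 at 75 µM and 14450 at 200 µM. The 11 called genes had a median of 24.6 covered T per read, against 27.8 in the other 68 ribosomal protein genes and 32.2 over all genes. The part of T content in this difference was not tested.

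Other long-lived transcripts had smaller differences. Of 35 housekeeping genes 23 lay below every 75 µM library at 0 µM, against 31.9% of all genes, and 14 at 200 µM, which is nearer to the 30.7% of all genes. Only TPI1, a glycolytic enzyme, was called lower at 0 µM. TPI1 had 4018 normalized reads at 0 µM, 8920, 8931 and 8055 at 75 µM and 6695 at 200 µM. GAPDH had 61430 at 0 µM, 92684, 136081 and 98264 at 75 µM and 77702 at 200 µM. Of 32 ribosome biogenesis genes 16 lay below every 75 µM library at 0 µM, against 31.9% of all genes, and 14 at 200 µM, against 30.7%, with a median difference of -0.24 at both doses, and RRN3, a factor of RNA polymerase I, was called lower at 200 µM. NCL, the nucleolar protein nucleolin, had 12847 normalized reads at 0 µM, 17422, 16671 and 16418 at 75 µM and 13400 at 200 µM. Both of its single libraries lay below a narrow 75 µM range.

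**Figure D2:**
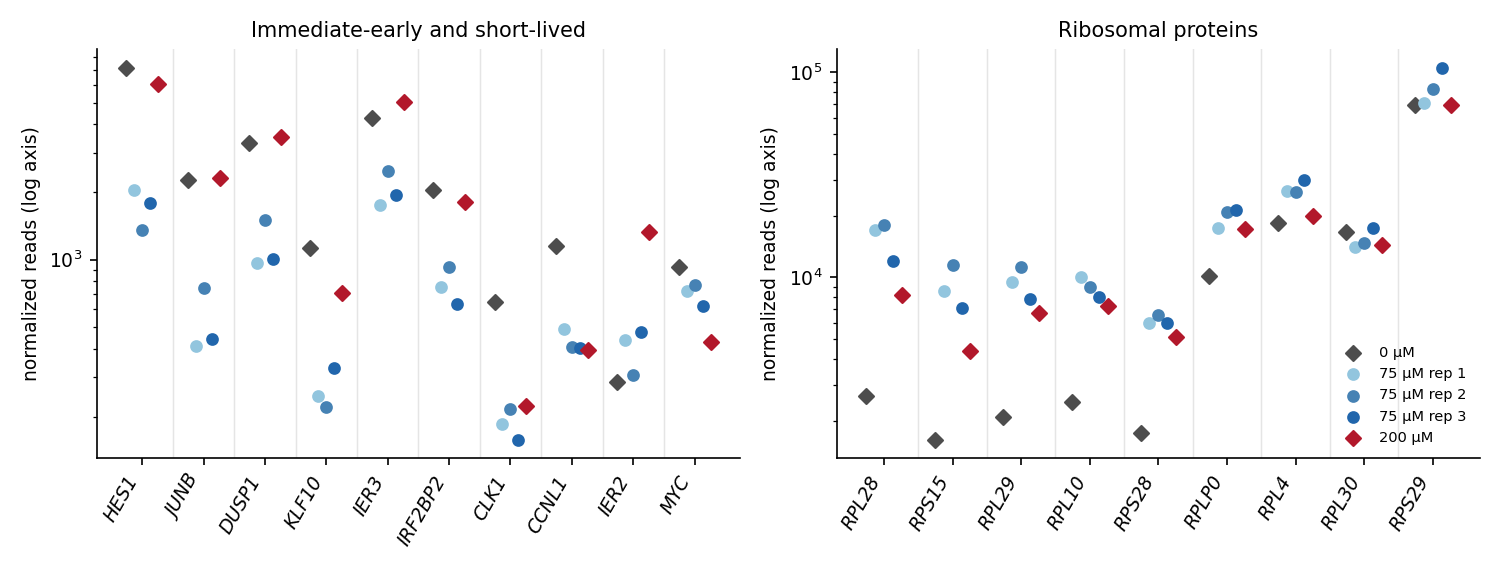
Points give normalized reads (log axis) per library for 10 immediate-early or short-lived regulator genes on the left and 9 ribosomal protein genes on the right, with diamonds for the single 0 and 200 µM libraries and circles for the 3 libraries with 75 µM; the genes plotted were chosen after their values were seen. HES1, JUNB, DUSP1, KLF10, IER3 and IRF2BP2 lay above the 75 µM circles in both single libraries, and RPL28, RPS15 and RPL29 lay below them.

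Lists of stress responses had 0 to 2 called genes in each direction, where 1.83% of all genes were called higher and 4.01% lower at 0 µM and 1.69% and 2.83% at 200 µM. Of 21 p53 targets, BBC3, which encodes the apoptosis inducer PUMA, was called higher at both 0 and 200 µM, and CDKN1A, the cell cycle inhibitor p21, at 200 µM. CDKN1A had 4393 normalized reads at 0 µM, 2409, 2594 and 2852 at 75 µM and 5858 at 200 µM. At 200 µM 13 p53 targets lay above every 75 µM library, against 30.0% of all genes, and 8 did at 0 µM, against 31.8%. Of 14 heat shock genes only the chaperone gene HSPA1A was called, with 3687 at 0 µM, 1246, 1562 and 1788 at 75 µM and 2210 at 200 µM. None of 10 metal and oxidative stress genes was called at either dose, and the metallothionein MT2A had 49063 at 0 µM, 54048, 66005 and 59124 at 75 µM and 55816 at 200 µM.

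Of 15 targets of ATF4 and the unfolded protein response, DDIT4, an inhibitor of mTOR signalling, was called higher at 0 µM and XBP1 at 200 µM, while ASNS and SLC7A11 were called lower at 200 µM. ASNS, asparagine synthetase, had 522 normalized reads at 0 µM, 1131, 1285 and 820 at 75 µM and 299 at 200 µM, so both single libraries lay below. Of 8 interferon-stimulated genes IFIT3 was called higher at both doses and IFI44 lower at 0 µM. Of 7 long noncoding and snoRNA host genes EPB41L4A-AS1 was called lower at 0 µM. None of 13 genes of uridine uptake and salvage, the route by which 4sU enters nucleotide pools, was called at either dose. SLC29A1, a nucleoside transporter, had 527 at 0 µM, 1372, 972 and 700 at 75 µM and 1255 at 200 µM. UCK2, the kinase that phosphorylates uridine, had 674 at 0 µM, 848, 830 and 533 at 75 µM and 1375 at 200 µM.

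The genes farthest from the 75 µM range in the library without 4sU were chosen by these same values and are given as a description. Among the 5 farthest above were DUSP2, IFIT3, BBC3 and IL31RA, between 4.44-fold and 5.11-fold the 75 µM mean. DUSP2, a nuclear MAP kinase phosphatase, had 1207 normalized reads at 0 µM, 258, 222 and 243 at 75 µM and 1051 at 200 µM. IFIT3, BBC3 and IL31RA were likewise above all 75 µM libraries at 200 µM, at 2.97-fold to 3.23-fold the mean. The 5 farthest below were UBE2S, AC087289.3, FBLN1, C9orf16 and ABRAXAS2. UBE2S, a ubiquitin-conjugating enzyme of the anaphase-promoting complex, had 121 normalized reads at 0 µM, 918, 2046 and 1216 at 75 µM and 1144 at 200 µM. It lay far below in the unlabelled library alone, and the 200 µM value was inside the 75 µM range. The 317 genes called lower had a median of 26.9 covered T per read and the 145 called higher 36.7, against 32.3 in the genes called in neither direction.

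At 200 µM the 5 genes farthest above were DNAJB9, DUSP2, ADAMTS3, SAA1 and ERRFI1. DNAJB9, a chaperone of the endoplasmic reticulum, had 323 normalized reads at 0 µM, 162, 168 and 110 at 75 µM and 721 at 200 µM. ERRFI1, a feedback inhibitor of the EGF receptor, had 691 at 0 µM, 354, 401 and 373 at 75 µM and 1347 at 200 µM. Both genes were above the 75 µM range at 0 µM too, by less than at 200 µM. The 5 farthest below were PATZ1, FARSB, FAM120AOS, CKB and ING2. FARSB, a subunit of phenylalanyl-tRNA synthetase, had 649 at 0 µM, 1216, 1054 and 1684 at 75 µM and 239 at 200 µM. CKB, brain-type creatine kinase, had 740 at 0 µM, 807, 873 and 1091 at 75 µM and 187 at 200 µM.

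Some genes lay in the order of the doses, and what share would do so without an effect of dose was not tested. In 490 genes (6.19% of 7910) the 0 µM library lay below and the 200 µM library above all 3 libraries with 75 µM, and in 525 (6.64%) the order was the opposite. The widest spans upwards were in MOSPD3, FBLN1, USP15, P3H1 and MGST1. FBLN1, the matrix protein fibulin-1, had 82 normalized reads at 0 µM, 557, 640 and 521 at 75 µM and 899 at 200 µM. Among the widest spans downwards were those of TMEM39A, NEURL1B, ALDH18A1 and CCDC28A. ALDH18A1, an enzyme of proline synthesis, had 1358 at 0 µM, 383, 545 and 840 at 75 µM and 225 at 200 µM. Of the 79 ribosomal protein genes none followed either order, and of the 23 immediate-early genes 1 followed each.

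Transcripts with fast turnover were lower in labelled libraries than without 4sU. Genes were ordered by the new-to-total ratio of the 3 siCGGBP1 libraries, which are not part of the dose series, and split into quintiles of 1582 genes. In the quintile with the lowest ratios the median read level minus that of the 0 µM library was 0.13, 0.23 and 0.16 (log2) in 75 µM replicates 1 to 3 and 0.12 at 200 µM. In the quintile with the highest ratios it was -0.09, -0.10 and -0.11 and -0.05. The highest minus the lowest quintile came to -0.27 ± 0.06 (SD, n = 3) at 75 µM and -0.17 at 200 µM, so the difference was not larger at the higher dose. The same measure between pairs of 75 µM libraries was 0.08 (replicate 1 minus 2), 0.12 (3 minus 2) and -0.02 (3 minus 1).

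A wider difference followed the number of covered T per read, a measure of how rich in T the sequenced 3′ ends are. In the quintile with the fewest T (median 22.0 per read) read levels were 0.38, 0.54 and 0.19 above the 0 µM library in 75 µM replicates 1 to 3 and 0.31 at 200 µM. In the quintile with the most T (median 40.9) they were -0.30, -0.32 and -0.10 and -0.15. The highest minus the lowest quintile was -0.61 ± 0.29 (SD, n = 3) at 75 µM and -0.46 at 200 µM. Libraries of the same dose differed in it too, by 0.59 (replicate 3 minus 2), 0.43 (3 minus 1) and 0.21 (1 minus 2). The 2 larger of these values involve replicate 3. From the 0 µM library, 75 µM replicates 1 to 3 differed by -0.68, -0.86 and -0.29. Within quintiles of T per read the turnover difference at 75 µM had means between -0.05 and -0.27, of which the smallest, -0.05 ± 0.06 (SD, n = 3) in the 4th quintile, was within its own spread, and at 200 µM it was between -0.01 and -0.18. All these differences share the single 0 µM library. This ordering by T was added after the data were seen.

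**Figure D3:**
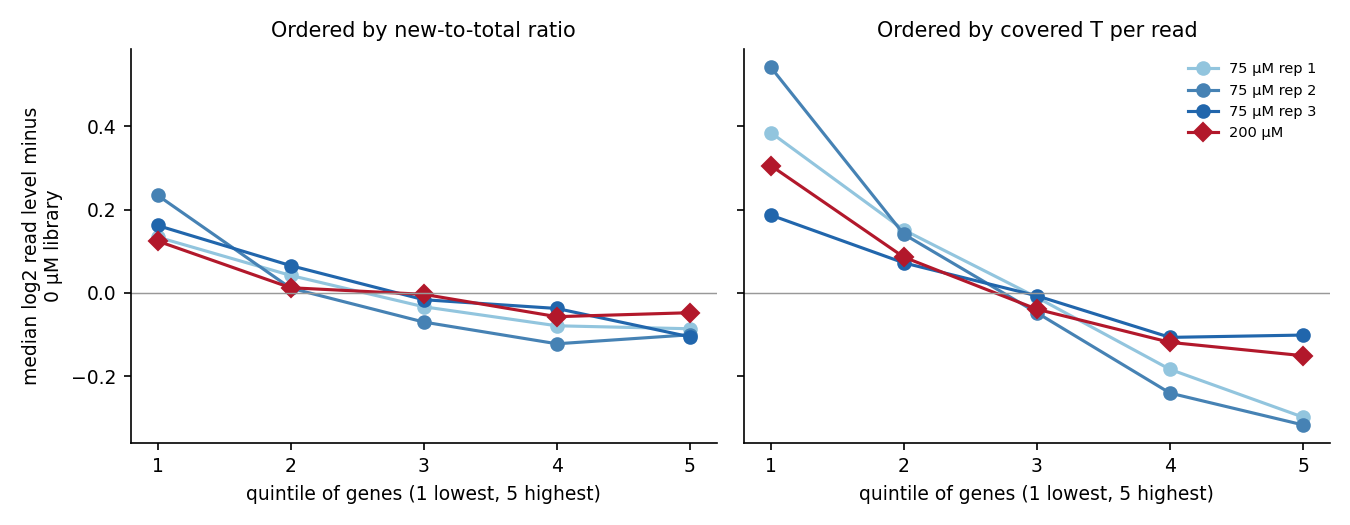
Lines give the median log2 read level of each labelled library minus that of the 0 µM library in quintiles of the 7910 genes, ordered by the new-to-total ratio of the siCGGBP1 libraries on the left and by covered T per read in the same libraries on the right. All 4 labelled libraries slope downwards, with 0.12 to 0.23 in the lowest and -0.05 to -0.11 in the highest turnover quintile, and the slope with T differs between replicates of 75 µM.

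Without 4sU most genes carried few conversions. Summed over the 7910 genes, 380095 T-to-C conversions were counted among the covered T, or 0.0645 per 100 T, against 0.227, 0.236 and 0.181 in 75 µM replicates 1 to 3 and 0.215 at 200 µM. The 200 µM library was thus inside the range of the 75 µM libraries, whose mean was 0.215 ± 0.030 (SD, n = 3). Of 7572 genes with at least 5000 covered T without 4sU, the median gene had 0.0146 conversions per 100 T, with quartiles at 0.00826 and 0.0561 and the 95th percentile at 0.351, and 553 genes had none. The conversions were concentrated in part of the genes. The 791 genes (10%) with the most conversions held 65.6% of them on 36.0% of the covered T.

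A tail of genes had conversion rates without 4sU that other genes reached only when labelled. Above 0.5 conversions per 100 T lay 207 genes, which held 12.1% of all conversions on 1.12% of the covered T. Most were at or under 0.5 in each labelled library, where 73, 77 and 46 of the 207 exceeded it in 75 µM replicates 1 to 3 and 70 at 200 µM (22.2% to 37.2%, against 13.8% to 18.6% of all genes with the coverage). The 5 highest were AC245033.1, XRCC2, SEPT3, RNASET2 and ZNF7. AC245033.1 (chromosome 15, 82536788 to 82573194, minus strand) had 2.85 conversions per 100 T at 0 µM (95% exact binomial interval 2.67 to 3.04, from 883 conversions), 0.97, 1.04 and 1.68 at 75 µM and 1.40 at 200 µM. XRCC2, a DNA recombination protein, had 2.49 at 0 µM (2.12 to 2.89), 0.60, 0.60 and 3.86 at 75 µM and 0 at 200 µM. SEPT3, a septin, had 1.96 at 0 µM, 0.24, 0 and 0.25 at 75 µM and 0.09 at 200 µM. Reads carry no molecular identifiers, so copies of 1 molecule count as several reads and the intervals cover counting error only.

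The deposited values named min2 are described by no source used here, and the name and the small values at 0 µM were taken to mean reads with at least 2 conversions. On this reading, such reads separated labelled from unlabelled libraries more sharply than single conversions did. Per 100 conversions there were 1.49 such reads without 4sU, 18.05, 19.2 and 18.7 in 75 µM replicates 1 to 3 and 15.5 at 200 µM. Per 1000 reads these were 0.314 at 0 µM, 12.7 ± 1.43 (SD, n = 3) at 75 µM and 10.4 at 200 µM. The 200 µM library thus lay below all 3 libraries with 75 µM on both measures, which pool the genes. By single genes it lay farther below. Among genes with at least 100 conversions the median per 100 was 19.2, 20.3 and 17.7 at 75 µM and 5.76 at 200 µM. It was 0.388 at 0 µM. Few such reads were the rule at 0 µM, where 40.1% of the genes with at least 100 conversions had none. In 196 of the 207 genes with high rates at 0 µM there were fewer than 5 such reads per 100 conversions. The exceptions included RNASET2, a lysosomal ribonuclease, with 107 such reads among 217 conversions, or 49.3 per 100. ERI1 had 49.7, TRIM24 49.0, ADH5 48.6 and GATAD2A 46.8 per 100, close to the 50 that results when every conversion lies in a read with exactly 2. Of 1099 genes with at least 100 conversions 10 reached 40, and they held 22.1% of all such reads in the unlabelled library.

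The conversion rates of single genes were spread differently in the 4 labelled libraries. For 6561 genes with at least 5000 covered T in all 5 libraries, the median rate minus the gene's own rate without 4sU was 0.154, 0.165 and 0.018 per 100 T in 75 µM replicates 1 to 3 and 0.032 at 200 µM. With 20000 and 1000 covered T required, the 200 µM value was 0.071 and 0.022. The share of genes above their own unlabelled rate was 90.3%, 89.8% and 66.5% at 75 µM and 68.2% at 200 µM. In the upper tail replicate 3 and the 200 µM library were highest, with a 95th percentile of the difference of 0.733, 0.823 and 0.882 at 75 µM and 0.973 at 200 µM. At 200 µM 1505 genes (22.9% of 6561) had a rate above every 75 µM library and 2600 (39.6%) below every one.

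**Figure D4:**
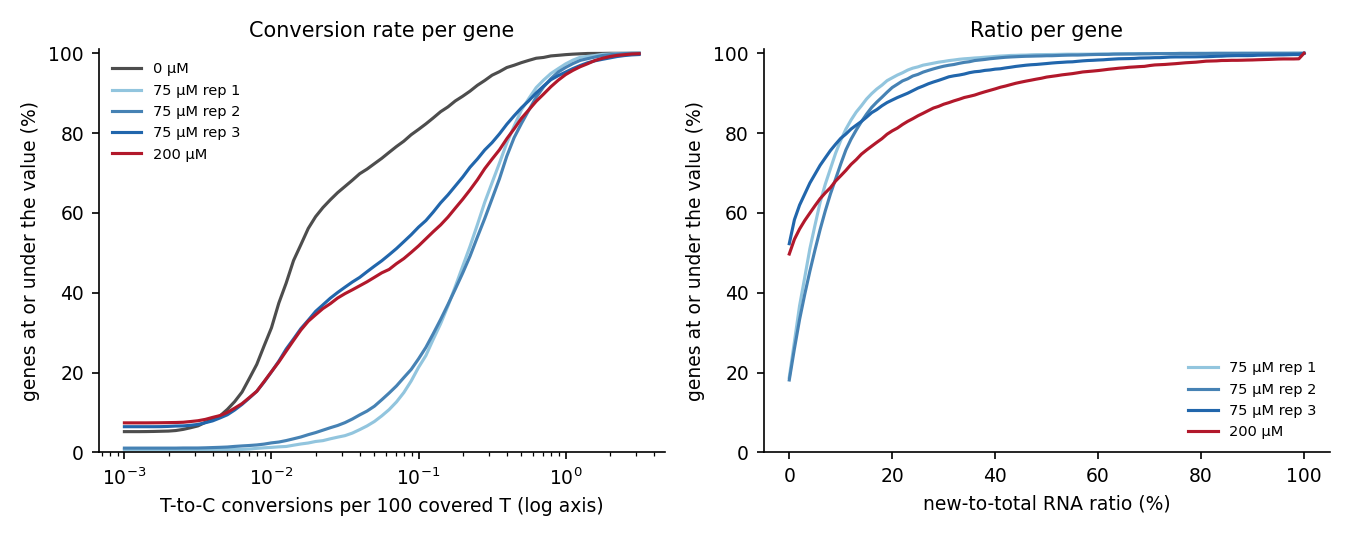
Curves give the percent of genes at or under a value in each library, on the left for T-to-C conversions per 100 covered T (log axis, 6561 genes, 5 libraries) and on the right for the new-to-total ratio in percent (7910 genes, 4 labelled libraries). The curves of 75 µM replicate 3 and 200 µM run together at low rates, with medians of 0.066 and 0.088, while replicates 1 and 2 lie to the right with medians of 0.215 and 0.229.

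New-to-total ratios at 200 µM were 0 in many genes and very high in others. The median ratio was 3.87%, 4.87% and 0% in 75 µM replicates 1 to 3 and 0.06% at 200 µM. The 200 µM median was 1.74% by posterior mean, against a mean of 3.62% at 75 µM. In genes with 500 and 1000 reads in all 5 the 200 µM median ratio was 2.53% and 2.85%, against means of 2.75% and 2.503%. Its place against the mean of the 75 µM libraries thus depends on the genes taken. Of the ratios, 18.8%, 18.2%, 52.3% and 49.7% in the order above were estimated at 0 among the 7910 genes. Weighted by reads, new RNA was 4.37%, 5.14% and 4.59% of the total at 75 µM and 7.97% at 200 µM. Ratios of 50% or more were found in 26, 49 and 204 genes at 75 µM and in 472 at 200 µM. At 200 µM 2398 genes (30.3% of 7910) had a ratio above every 75 µM library and 1453 (18.4%) below every one. Without replicate 3 these were 2659 and 3027, so that more genes lay below than above. By the credible limits (0.05 and 0.95 quantiles) the 200 µM interval lay wholly above all 3 intervals in 1787 genes (22.6%) and wholly below in 808 (10.2%). Genes with more reads were less often at 0. Among 1274 genes with a mean of at least 2000 reads 5.34%, 6.51%, 33.8% and 33.8% were at 0, and among 2640 genes with a mean under 500 reads 27.6%, 26.2%, 66.1% and 62.7% were.

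Of 2105 genes with a higher ratio at 200 µM than in every 75 µM library and the coverage above, 1451 (68.9%) also had a higher conversion rate than in every one, and the others did not. In genes with a ratio of at least 20% and the coverage above, the rate minus the unlabelled rate divided by the ratio, a measure of conversions per 100 T of new RNA, had a median of 3.38, 3.20 and 2.39 at 75 µM and 1.75 at 200 µM. These genes were chosen by each library's own ratio and numbered 357, 513, 742 and 1269 in that order. The medians are therefore not of the same genes. HES1 is among the genes with a higher ratio and no higher rate at 200 µM. Its ratio was 51.9%, 70.6% and 67.7% at 75 µM and 83.5% at 200 µM, with credible limits of 81.4% and 85.6%. Its conversion rates in the same order were 1.80, 2.12 and 2.04 per 100 T and 1.61, with 0.0585 at 0 µM. The 200 µM library was highest by ratio and lowest of the labelled libraries by rate. JUNB had ratios of 64.5%, 57.5% and 72.0% at 75 µM and 74.0% at 200 µM, and rates of 2.17, 1.75 and 2.08 and 1.42.

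Among the lists, ratios at 200 µM exceeded every 75 µM library in 14 of 23 immediate-early genes and in 17 of 32 ribosome biogenesis genes, against 30.3% of all genes. In ribosomal protein genes 25 of 79 did and 19 lay below every one, against 18.4% of all genes. Of 31 short-lived regulators 13 lay above every one and 10 below. By conversion rate, 7 of the 23 immediate-early genes lay above every 75 µM library and 11 below, against 22.9% and 39.6% of genes with the coverage. Of 30 ribosome biogenesis genes with the coverage, 14 lay above by rate and 9 below. ID1, an inhibitor of basic helix-loop-helix factors, had ratios of 53.8%, 56.6% and 65.8% at 75 µM and 92.5% at 200 µM, and its rates of 1.90, 1.88 and 2.11 and 2.13 per 100 T were close to one another. NCL had 3.08%, 3.93% and 0% at 75 µM and 12.0% at 200 µM, with a higher rate too, 0.382 per 100 T against 0.184, 0.195 and 0.0852. MT2A had 1.81%, 2.16% and 2.02% at 75 µM and 7.56% at 200 µM, outside a narrow range, and rates of 0.135, 0.137 and 0.114 and 0.233. MYC lay the other way, with 49.4%, 59.1% and 96.8% at 75 µM and 28.8% at 200 µM. SOX4 overlapped, with 23.4%, 19.7% and 17.1% and 17.4%.

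**Figure D5:**
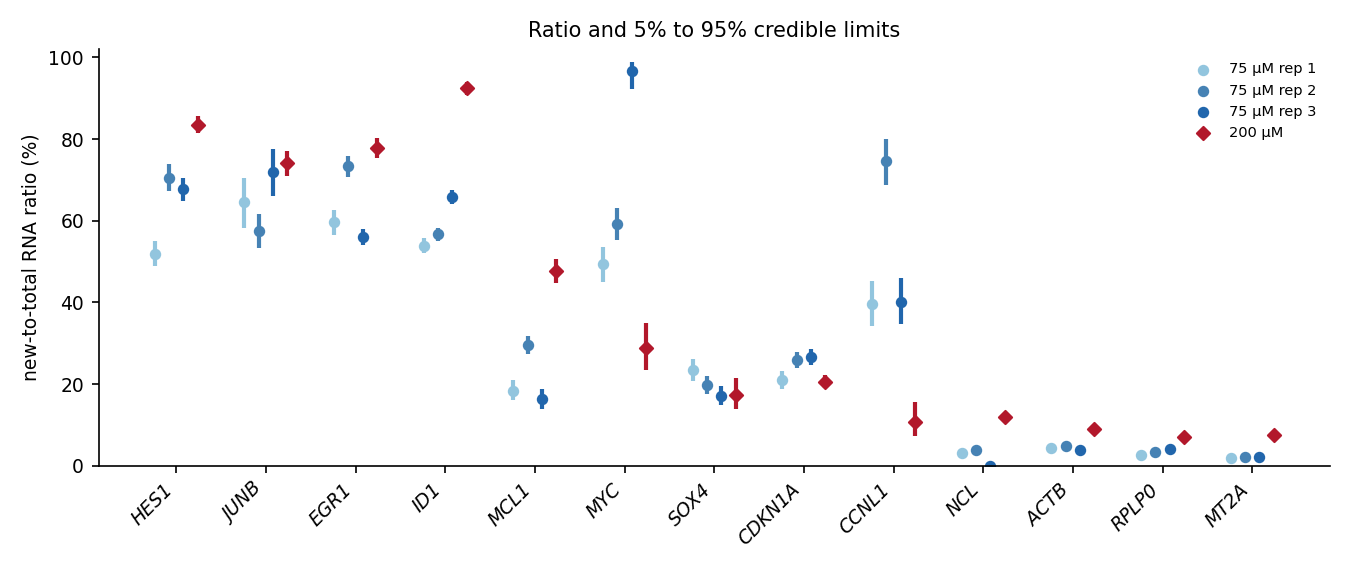
Points give the new-to-total ratio in percent and lines its 5% to 95% credible limits for 13 genes in 75 µM replicates 1 to 3 (circles) and at 200 µM (diamonds); the genes plotted were chosen after their values were seen. HES1, ID1, MCL1, NCL and MT2A lie higher at 200 µM than in all 3 libraries with 75 µM, and MYC and CCNL1 lie lower.

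A ratio of 100% at 200 µM was listed for 107 genes, and MIA3, IER5, CD55 and NEGR1 are examples that came first by order in the files, not by value. MIA3, which helps export collagen from the endoplasmic reticulum, had ratios of 1.06%, 5.63% and 0% at 75 µM and a rate of 2.84 conversions per 100 T at 200 µM, against 0.0859, 0.239 and 0.0578. In 7 genes the ratio was 0% in all 3 libraries with 75 µM and 100% at 200 µM, and 5 of them were INPP4A, PROS1, EIF4EBP3, RPS6KB2 and WASHC3. In WASHC3, a subunit of the actin-regulating WASH complex, 283 reads at 200 µM held 164 conversions, and no read held 2. INPP4A, EIF4EBP3 and RPS6KB2 likewise had 77, 70 and 92 conversions and no read with 2. PROS1 differed, with 62 reads of at least 2 conversions among 342.5 conversions. Of the examples named first, MIA3 and IER5 had 106 and 134 such reads, while CD55 and NEGR1 had none. The genes farthest below were MAP3K1, SAT1, MED17, CCNL1 and TGIF1. MAP3K1, a kinase of stress signalling, had 43.6%, 38.4% and 42.4% at 75 µM and 0% at 200 µM, where 229 reads held 1 conversion. SAT1, an enzyme of polyamine breakdown, had 41.9%, 51.3% and 31.3% and then 0%, from 160 reads with 3 conversions.

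In many genes with a high ratio at 200 µM few reads held 2 conversions, on the reading of min2 given above. Of the 472 genes at 50% or more, 274 (58.1%) had fewer than 5 reads with at least 2 conversions per 100 conversions, as did 88 of 204 (43.1%) in 75 µM replicate 3, 2 of 49 in replicate 2 and 1 of 26 in replicate 1. Low values were not particular to these genes. At a ratio of 20% or more the share was 59.6% at 200 µM and 47.0% in replicate 3. Over all 2054 genes with at least 100 conversions at 200 µM, the median was 5.76 per 100. Pooled over genes at 50% or more with 100 conversions, there were 26.9, 26.3 and 26.9 per 100 at 75 µM and 21.1 at 200 µM. At 90% or more there were 133 genes at 200 µM, of which 83 were of this kind. In the unlabelled library 196 of 207 genes with a high rate had few such reads, as given above. This was a trait of that whole library, where the median of 1099 genes with at least 100 conversions was 0.388 per 100. Of the 5 libraries, the 0 µM library, 75 µM replicate 3 and the 200 µM library were also those with the fewest genes detected. The part of that in the ratios was not tested.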

How the data were processed

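Human U-2OS Tet-ON cells were labelled with 0, 75 or 200 µM 4sU, and 3′ end libraries were made with the QuantSeq V2 kit after alkylation. Ribosomal reads were removed with bowtie2 2.3.0, the rest was mapped with STAR 2.5.3a, and GRAND-SLAM gave per gene the deposited expected counts: reads, conversions, covered T and min2, read here as reads with 2 or more conversions. These carry no scaling, and for 10350 genes a read count is fractional in at least 1 of the 5 libraries. The new-to-total ratio, deposited by the authors as a fraction with credible limits, was used without further scaling and is printed in percent. The labels mention labelled ERCC spike-in RNA, which is not listed among the genes, so no spike-in scale was used. Of 15 mitochondrially encoded genes sought by symbol none was listed among the genes, so they were not analysed.

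Read counts were divided by median-of-ratios size factors, equal to those of DESeq2 1.42.0, over genes with at least 100 reads in all 5 libraries. TMM factors came from edgeR 4.0.16 (R 4.3.3), and other values were computed in Python with numpy, pandas and scipy. Conversion rates need at least 5000 covered T. The steps were tested on simulated counts. The members, gene lists, thresholds and rules for named genes were chosen with earlier results of these data known. Named genes were a fixed set, the 5 farthest beyond the 75 µM range in each direction for read level and ratio, the 5 highest unlabelled rates, the 5 highest ratios at 200 µM, the 5 widest spans in dose order and the 5 highest shares of reads with at least 2 conversions among genes with 100 conversions. Quintiles by T per read, list counts, ratios by depth and reads with 2 conversions in high-ratio genes were added, and other genes named from the lists were chosen, after the data were seen. Counts called at least 2-fold are beyond the nearest of the 3 libraries with 75 µM. Coordinates are GRCh38, the build of the Ensembl release in the study's methods, from GENCODE 44, which matched 18198 of the 18388 gene identifiers. Overlapping genes and near-identical copies, such as those of ribosomal proteins, can share reads, and their levels are uncertain to that extent. Values named double hits were not used. Some genes that met these rules are not reported here.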

Additional observations from a re-analysis of the deposited data

How the results depend on the processing

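No paired analysis was possible because the 0 and 200 µM doses have 1 library each and the results come from no test. Some comparisons turned with the setting. Without replicate 3, 2659 genes had a ratio above and 3027 below every 75 µM library (2398 and 1453 as reported). The median ratio at 200 µM was below the mean of the 75 µM libraries as reported (0.06% and 2.91%). It was above that mean with 1000 reads in all 5 (2.85% and 2.503%). As reported, the 200 µM value lay within the range of the 75 µM libraries, 0% to 4.87%. Leaving out 1 replicate changed the sign of the median of ATF4 targets (0 µM), uridine genes (0 µM, 0.11 to -0.21 without replicate 3), metal and oxidative stress genes (both doses, without replicate 1), interferon-stimulated genes (200 µM, without replicate 2) and bone markers (both doses). Counts of called genes depend on the filter, the threshold and the replicates set beside the single library. At 0 µM (145 higher, 317 lower) they were 398 and 655 with a mean of at least 100 reads, 777 and 1329 with a mean of at least 20 reads and 1 read added, 16 and 56 with 500 reads in all 5 libraries, 595 and 801 at 1.5-fold, and 435 and 647 from the mean of 75 µM. At 200 µM (134 higher, 224 lower) they were 374 and 813, 805 and 1557, 15 and 14, 568 and 642, and 409 and 475 in the same order. Leaving out 1 replicate of 75 µM gave 221 to 272 higher and 389 to 522 lower at 0 µM and 212 to 231 higher and 308 to 328 lower at 200 µM, since fewer libraries bound the range. The typical difference from 75 µM was 0.55 (0 µM) and 0.54 (200 µM) with a mean of at least 100 reads and 0.37 and 0.32 with 500 reads in all 5. The turnover difference was -0.26 at 200 µM when genes were ordered by the siControl ratios and -0.21 at 75 µM when ordered by conversions. Reads with at least 2 conversions per 1000 reads, another unit, were 12.7 at 75 µM and 10.4 at 200 µM. Genes with a ratio above every 75 µM library numbered 1260 and 691 at 500 and 1000 reads, and those below 739 and 393. By posterior mean 2241 lay below, and 1641 to 3027 with 1 replicate left out, the highest without replicate 3, whose ratio is 0 in many genes. The cause of these changes was not tested where none is given. Depth and the number of genes detected limit all values of genes with few reads.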
